A study of Mus musculus with 4 samples.

Results

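The comparison described here sets CreER-transduced against mock-transduced cells in mouse colonies grown from long-term haematopoietic stem cells (LT-HSC). Its members are the LT-HSC CreER array and the LT-HSC mock array, 2 of the 4 arrays of the series, chosen by their titles. The difference was taken as the log2 signal on the CreER array minus that on the mock array for each gene with 1 symbol. Each array measured RNA of 1 sample, so no difference below has a replicate check, an error or a p-value.

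All cells had a C57BL/6 background, and the series title states that they conditionally express MLL-ENL, the fusion of Kmt2a (MLL) with Mllt1 (ENL). The LT-HSC CreER group carried, by transduction, CreER, in which the recombinase Cre is joined to the hormone-binding part of the oestrogen receptor. The LT-HSC mock group had received a mock transduction. The series holds the same pair of transductions in short-term haematopoietic stem cells (ST-HSC), 1 array each, and these 2 arrays are used here as reference points. The RNA came from cells of colonies, grown in semi-solid medium that contained stem cell factor, IL-3, IL-6 and GM-CSF, and not from the stem cells themselves. The sources used here do not give the vector, any activation of CreER by its ligand, the animals' age and number, or how many colonies were pooled. The submitters describe the arrays as a preliminary search for genes that take part in transformation to leukaemia.

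MLL fusions are transcriptional regulators that, as background, keep HoxA genes and the cofactor gene Meis1 active in myeloid progenitors and thereby hold them in an immature, self-renewing state. Colonies in these cytokines normally mature towards neutrophils, macrophages, mast cells and basophils. In a bulk array more cells of a type and more RNA of that gene per cell cannot be told apart.

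Across 19938 genes the values ran from 2.21 to 14.82 on the log2 scale. A gene was read as measurable when its level on the higher of the 2 LT-HSC arrays lay above that array's median over all genes, here called the signal floor, which was 8.11 on the CreER array and 8.08 on the mock array. This left 10251 genes, with a median difference of -0.03. Of them, 4565 lay above 0 (44.5%) and 5686 below 0 (55.5%). The 9 measured genes of a list of commonly steady transcripts had a median of 0.05 and ranged from -0.12 to 0.20. The cells labelled as LT-HSC-derived carried the markers of mixed myeloid colonies. All 19 measured primary granule genes, all 20 of the secondary and tertiary neutrophil granule genes and 18 of 25 mast cell and basophil genes were past the floor. Of 19 measured stem and progenitor genes 14 were past it, and the stem cell genes Slamf1, Fgd5, Esam, Ctnnal1 and Tek were under it on both LT-HSC arrays. T and NK cell genes were past the floor in 1 of 13 cases (Thy1) and B cell genes in 3 of 12.

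Esr1, whose product's hormone-binding part is joined to Cre in CreER, read 10.48 with CreER and 9.69 with mock in LT-HSC-derived cells, and 10.63 and 9.56 in ST-HSC-derived cells. Both CreER arrays thus lay above both mock arrays. The sources used here do not say whether the probe set detects the construct. Kmt2a (10.63 with CreER, 10.49 with mock) and Mllt1 (10.76 and 10.59) differed by 0.14 and 0.16, and a probe set outside the fused part would not report the fusion. Of the 16 genes of the MLL and elongation complex list, 9 were above 0 and 7 below, with a median of 0.04. They ranged from -0.34 for the elongation factor gene Ell2 to 0.21 for Men1, which encodes the MLL partner menin.

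Far more genes were lower than higher with CreER. At least a 2-fold difference past the floor was seen in 90 of the 10251 genes (0.878%). Of these, 78 (0.761%) were lower with CreER and 12 (0.117%) were higher. At the 2-fold line, Metrnl lay just inside (9.87 with CreER, 10.87 with mock) and Rab3il1 just outside (8.61 and 9.60, a difference of -0.99) on the lower side. On the higher side Slco4c1 lay inside with 1.04 and Stap2 outside with 0.95. The array with the lower signal read under the floor for 19 of the 78 lower and 6 of the 12 higher genes, so the sizes of those differences are uncertain.

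**Figure D1:**
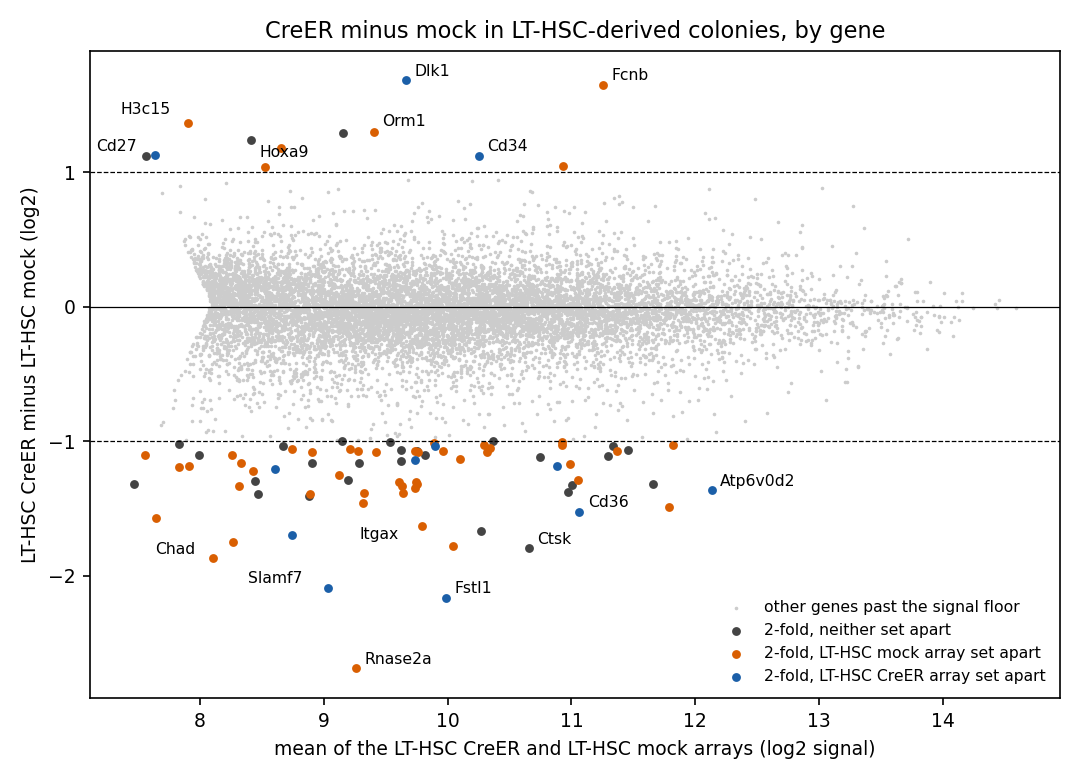
Each point is a gene past the signal floor, with the mean of both LT-HSC arrays on the x axis (log2 signal) and LT-HSC CreER minus LT-HSC mock on the y axis (log2); dashed lines mark 2-fold. The 78 genes below the lower line and the 12 above the upper line are coloured by which LT-HSC array stands at least 2-fold from each of the other 3 arrays, and the furthest are Rnase2a at -2.69 and Dlk1 at 1.69.

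The ST-HSC arrays, from another population, serve as reference points for placing each LT-HSC difference. An array was called set apart when it was the extreme of the 4 in the direction of the difference and at least 2-fold from the nearest of the other 3. By this rule a 2-fold lower gene with LT-HSC CreER above both ST-HSC arrays always has the mock array set apart. The same holds for a 2-fold higher gene with LT-HSC CreER below both. In such genes the class also records a difference between populations, and it does not show which LT-HSC array is unusual. Among the 78 lower genes, the mock array was set apart for 43 (55.1%), the CreER array for 9 (11.5%) and neither for 26 (33.3%). Among the 12 higher genes, the mock array was set apart for 6, the CreER array for 3 and neither for 3. No gene had both arrays set apart. Of all genes past the floor and lower with CreER by any amount, 0.756% had the mock array and 0.158% the CreER array set apart, and of those higher by any amount 0.131% and 0.0657%. Only genes at least 2-fold apart can meet the rule, so these shares hold the same genes as the counts. The background of merely being the extreme array is much larger: among genes lower by any amount, the mock array was the highest for 52.7%.

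For 49 genes, then, the mock array stood at least 2-fold from the CreER array and from each ST-HSC array, though not equally far. For Lama5 it lay 1.03 log2 units above LT-HSC CreER but 3.14 above the higher ST-HSC array. Among the 43 lower genes of these, the CreER array lay at varying distances from the ST-HSC arrays. For 30 of them it was less than 2-fold above the higher ST-HSC array, or below it. In 37 of the 43 the LT-HSC CreER array still lay above both ST-HSC arrays, and in 13 by at least 2-fold. The other 6 had at least 1 ST-HSC array above it.

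**Figure D2:**
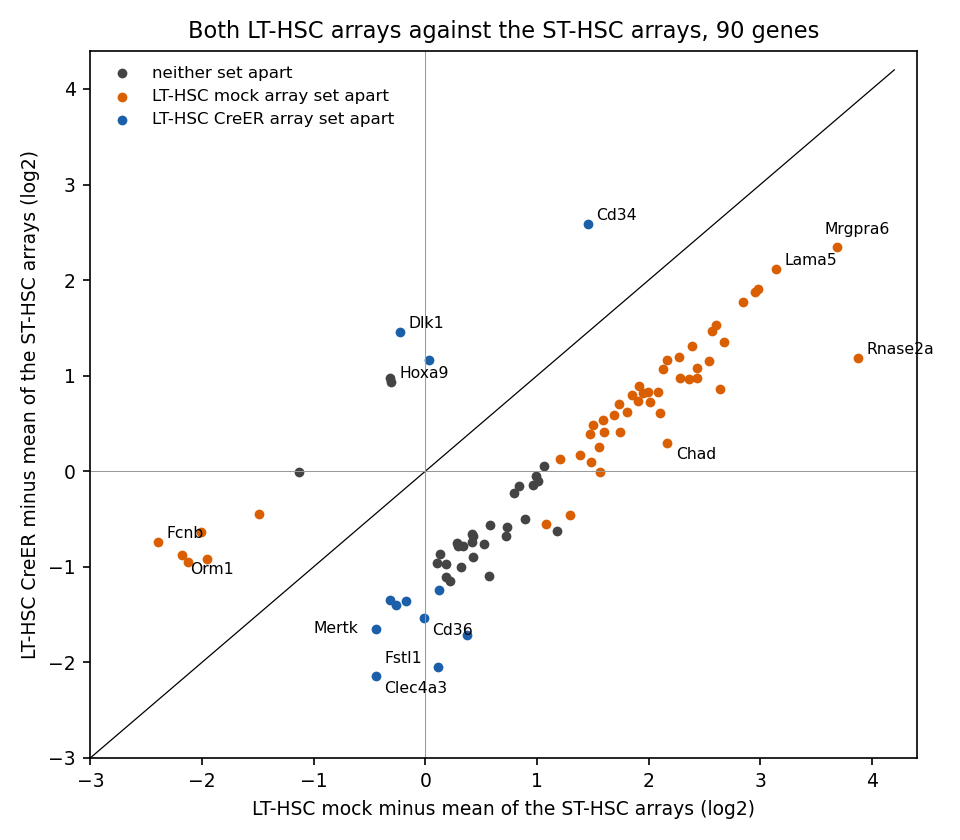
For the 90 genes, the x axis gives LT-HSC mock and the y axis LT-HSC CreER, each minus the mean of both ST-HSC arrays (log2); genes on the diagonal would be equal on the LT-HSC arrays. To the right of 0, most orange points (mock array set apart) run from near 0 on the y axis up to genes such as Lama5 and Mrgpra6, which were high on both LT-HSC arrays, while the blue points below the diagonal (CreER array set apart) lie within 0.5 of 0 on the x axis and low on the y axis.

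Rnase2a, an eosinophil-type ribonuclease gene, had the largest difference, with the mock array set apart. It read 10.60 on LT-HSC mock, 7.91 on LT-HSC CreER, 6.77 on ST-HSC CreER and 6.68 on ST-HSC mock. Only the mock array was past the floor, and the difference of -2.69 (6.46-fold) may include signal from close paralogs of this gene family. Chad, the gene of the matrix protein chondroadherin, followed the same pattern, with 9.04 on LT-HSC mock against 7.17 on LT-HSC CreER, and 6.74 as the lowest value, on ST-HSC mock. Cox6a2, a cytochrome c oxidase subunit gene, read 10.93 on LT-HSC mock and 9.15 with CreER, and 8.33 and 8.26 on the ST-HSC arrays. Car6, a carbonic anhydrase gene, was at 8.43 on the mock array and between 6.82 and 6.91 on the other 3. Chad and Car6 were also under the floor with CreER. For Chad and Car6 the CreER array was within 0.5 log2 units of the ST-HSC arrays, whereas for Cox6a2 it stayed 0.82 above them.

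Genes of mast cells and basophils made up a further part of those with the mock array set apart. Tph1, the serotonin synthesis enzyme gene, read 10.34 on LT-HSC mock, 8.95 on LT-HSC CreER, 8.45 on ST-HSC CreER and 7.13 on ST-HSC mock. Fcer1a, the IgE receptor chain, read 10.39, 9.09, 8.62 and 7.61 in the same order. Gzmb, which encodes granzyme B, read 11.57, 10.41, 10.39 and 8.77. In all 3 the mock array was the higher of the LT-HSC pair but the lower of the ST-HSC pair. The CreER differences were -1.39, -1.30 and -1.17 in LT-HSC-derived and 1.32, 1.01 and 1.62 in ST-HSC-derived cells.

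Over the whole mast cell and basophil list, 17 of 18 genes past the floor were below 0. The median was -0.65, and 3 were at least 2-fold lower, against 55.5% of all genes past the floor below 0 and 0.761% at least 2-fold lower. The median over all 25 measured members was -0.48. The mock array was the highest of the 4 for 16 of the 18, where it was for 52.7% of all genes that were lower. At the same time the CreER array lay above both ST-HSC arrays for 15 of the 18 and at least 2-fold above them for 9. For a lower gene with CreER above both ST-HSC arrays the mock array is necessarily the highest. These counts therefore overlap, and the first also reflects higher levels in LT-HSC- than in ST-HSC-derived cells. The mean log2 level over the 18 genes was 10.97 on LT-HSC mock, 10.32 on LT-HSC CreER, 9.25 on ST-HSC CreER and 8.84 on ST-HSC mock. The basophil proteases Mcpt8 (-0.12) and Prss34 (0.07) and the histamine synthesis gene Hdc (-0.21) were close to 0, while the cytokine genes Il4 (-0.90) and Il13 (-0.80) and the receptor gene Cd200r3 (-0.85) approached 2-fold. The members of the list were thus spread over more than 1 log2 unit, with these basophil proteases at its upper end.

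A second set of genes that the mock array set apart was high on both LT-HSC arrays. Mrgpra6, a receptor gene of a multigene family whose members may share signal, read 10.30 with mock, 8.97 with CreER and 6.95 and 6.29 on the ST-HSC CreER and mock arrays. Lama5, a laminin chain gene, read 11.44 and 10.41, against 8.30 on both ST-HSC arrays. Lif, the leukaemia inhibitory factor gene, read 10.28 and 9.20 against 7.54 and 7.32. These genes step down from LT-HSC mock over LT-HSC CreER to the ST-HSC arrays, and Inpp4b, P2rx3, Tmtc2, Trib3, Npl, Ccl24, Avil, Retnla and the growth factor receptor gene Fgfr1 did the same with at least 2-fold between LT-HSC CreER and either ST-HSC array. P2rx3 rests on 1 of its 2 probe sets: as their mean it differed by -0.66 and not by -1.07. Retnla was under the floor with CreER and barely above it with mock (8.11).

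Trib3, a pseudokinase gene induced when amino acids are short, belongs to the list of amino acid supply genes and ATF4 targets. There 11 of 13 genes were below 0 (against 55.5% of all genes past the floor), with a median of -0.26. The mock array was the highest of the 4 for all 11, against 52.7% of all genes that were lower. Trib3 itself differed by -1.08, the cystathionase gene Cth by -0.90, the stress factor gene Ddit3 by -0.87 and the glycine transporter gene Slc6a9 by -0.82. All 13 were higher on LT-HSC CreER than on both ST-HSC arrays, so for the 11 below 0 the mock array was necessarily the highest. The arginine transporter genes Slc7a2 (-1.29) and Slc7a3 (-1.06), which are outside that list, were also set apart by the mock array.

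Other genes with the mock array set apart encode enzymes, receptors and regulators. Mirt2, a long non-coding RNA, read 12.54 with mock and 11.04 with CreER, and 10.84 and 10.04 on ST-HSC CreER and ST-HSC mock. Egr2, an immediate early transcription factor gene of macrophages, read 11.90 with mock and between 10.64 and 10.83 on the other 3 arrays. Tgm2 (transglutaminase, -1.03), Ctse (cathepsin E, -1.13), Mmp13 (collagenase, -1.01), Ch25h (cholesterol 25-hydroxylase, -1.30), Havcr2 (the inhibitory receptor TIM-3, -1.03), Cd200r2 (-1.05), Amigo2 (-1.46), Ptprg (-1.40), Paqr3 (-1.38), Derl3 (-1.25), Phyhd1 (-1.06) and Arfgef3 (-1.08) were past the floor on both LT-HSC arrays. Cp, Dnase2b, Neb, Sytl3 and Erv3 were lower by 1.11 to 1.22 log2 units and under the floor with CreER. Itgax, the gene of the integrin CD11c of dendritic cells, and Ms4a7, a macrophage membrane protein gene, were also set apart by the mock array, although with CreER they were the lowest of the 4. Ms4a7 was under the floor with CreER. Itgax read 10.61 with mock, 8.98 with CreER and 9.56 and 9.51 on the ST-HSC arrays.

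The promoters of these genes can be shown beside their values. The RefSeq table (GRCm38.p6) held a window of 250 bases before to 50 after the start for 58 of the 78 lower and 9 of the 12 higher genes. The AP-1 letters TGANTCA, searched on both strands, were in the windows of 13 of the 58 lower genes (22.4%), against 6.16% of the 8299 genes past the floor with a window and 8.97% of all 27025 genes of the table. Of the 13, 9 had the mock array set apart: Arfgef3, Cp, Gzmb, Havcr2, Itgax, Lif, Mmp13, Ms4a7 and Phyhd1. The GATA letters AGATAA were in 7 of the 58 (12.1%, against 7.69%), 6 of them with the mock array set apart, the ETS letters GAGGAA in 28 (48.3%, against 30.6%) and the E-box letters CACGTG in 6 (10.3%, against 12.3%). Among the 9 higher genes, 1 window held the ETS letters and 0 the other 3. In the stretches shown, each holds 1 match and no other of these letter strings. A match describes the letters only, and the shares were not tested.

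Shown are the 150 bases before the start of 4 lower genes with the AP-1 letters and of Fcer1a with the GATA letters, read along the strand of the gene, with the matching letters in capitals. They lie at chr14:56262335-56262484 (minus strand, Gzmb), chr7:128129400-128129549 (plus strand, Itgax), chr9:7272364-7272513 (plus strand, Mmp13), chr1:171649000-171649149 (minus strand, Slamf7) and chr1:173227230-173227379 (minus strand, Fcer1a) of GRCm38.p6.
Gzmb: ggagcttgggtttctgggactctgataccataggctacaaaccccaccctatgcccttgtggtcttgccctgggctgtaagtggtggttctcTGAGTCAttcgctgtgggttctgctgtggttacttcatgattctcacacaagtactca
Itgax: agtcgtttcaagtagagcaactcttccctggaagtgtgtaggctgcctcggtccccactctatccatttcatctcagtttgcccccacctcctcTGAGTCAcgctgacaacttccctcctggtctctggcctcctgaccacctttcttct
Mmp13: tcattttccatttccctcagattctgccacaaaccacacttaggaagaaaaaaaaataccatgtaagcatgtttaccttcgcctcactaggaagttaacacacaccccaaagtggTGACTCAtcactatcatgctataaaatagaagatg
Slamf7: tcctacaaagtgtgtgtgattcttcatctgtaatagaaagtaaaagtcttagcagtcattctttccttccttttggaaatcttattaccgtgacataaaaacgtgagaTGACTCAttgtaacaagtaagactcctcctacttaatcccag
Fcer1a: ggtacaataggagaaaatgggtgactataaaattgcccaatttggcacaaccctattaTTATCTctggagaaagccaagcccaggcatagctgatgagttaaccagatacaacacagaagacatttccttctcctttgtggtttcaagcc

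The match lies 58 to 52 bases before the start in Gzmb, 56 to 50 in Itgax, 35 to 29 in Mmp13 and 42 to 36 in Slamf7. In Fcer1a the GATA letters run on the opposite strand, 92 to 87 bases before the start. Among genes of AP-1 subunits, Jun (11.80 with CreER, 11.02 with mock) and Fosb (10.19 and 9.54) were higher by 0.78 and 0.65, whereas Fos, Junb and Jund differed by -0.06, 0.00 and -0.38. Gata2 and Gata1 differed by -0.25 each.

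The 9 lower genes with the CreER array set apart were Fstl1, Slamf7, Clec4a3, Cd36, Atp6v0d2, Mertk, Gpr137b, Gpr137b-ps and Ly9. Cd36 and Mertk are in the macrophage list and Atp6v0d2 is in the lysosome list. In all 9 both ST-HSC arrays were at least 2-fold above LT-HSC CreER. Slamf7, Clec4a3 and Mertk were under the floor with CreER, so the sizes of their differences are uncertain. Fstl1, a secreted glycoprotein gene, read 8.90 on LT-HSC CreER, 11.07 on LT-HSC mock, 10.34 on ST-HSC CreER and 11.56 on ST-HSC mock. Slamf7, a leukocyte receptor gene, read 7.99, 10.08, 9.33 and 10.08 in that order. The C-type lectin receptor gene Clec4a3 read 7.89, 9.59, 9.91 and 10.16. For Fstl1 and Slamf7 the CreER array was the lower one in the ST-HSC pair as well, by 1.22 and 0.76.

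Cd36, the scavenger receptor that takes up oxidised lipids, read 10.30 on LT-HSC CreER and between 11.69 and 11.99 on the other 3 arrays. Atp6v0d2, a subunit gene of the lysosomal proton pump, read 11.45 with CreER and between 12.63 and 12.82 on the other 3. Mertk, the receptor by which macrophages bind dying cells, read 8.01 with CreER, 9.21 with mock and 9.45 and 9.86 on the ST-HSC arrays. Gpr137b, a lysosomal membrane protein gene, read 9.16 against 10.30 with mock, and Gpr137b-ps, a pseudogene that may share its signal, differed alike (-1.19).

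**Figure D3:**
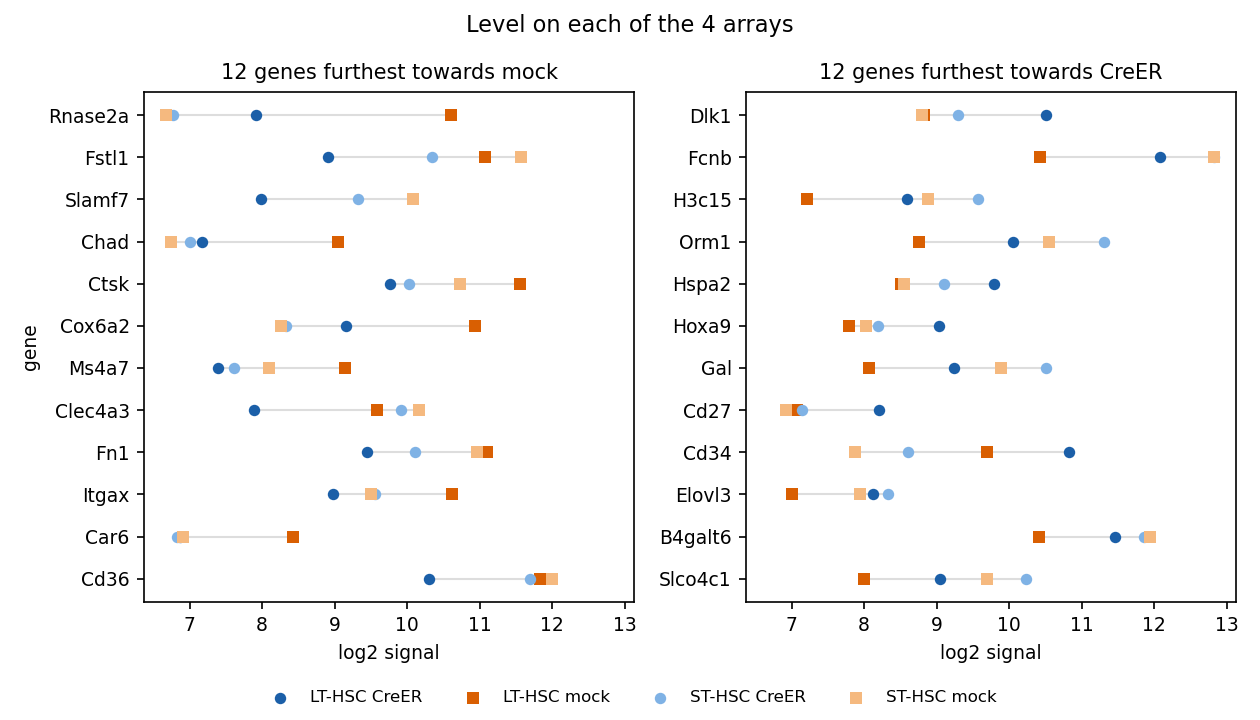
The log2 signal on each of the 4 arrays is shown for the 12 named genes furthest towards mock (left) and towards CreER (right); dark points are the LT-HSC and light points the ST-HSC arrays, circles CreER and squares mock, and where points coincide the one drawn last is seen. Rnase2a, Chad, Cox6a2 and Car6 have the LT-HSC mock square alone on the right, whereas Fstl1, Slamf7, Clec4a3 and Cd36 have the LT-HSC CreER circle alone on the left; on the right side Fcnb, H3c15, Orm1 and Gal have the LT-HSC mock square alone on the left and Dlk1, Cd34 and Cd27 the LT-HSC CreER circle alone on the right.

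Macrophage genes as a list were lower with CreER. Of 29 measured, 19 were past the floor. Of these, 18 were below 0 (against 55.5% of all genes past the floor) and 8 (Ms4a7, Cd36, Mfge8, Mrc1, Mertk, Trem2, Retnla and Axl) were at least 2-fold lower (against 0.761%). Over all 29, 22 were below 0. The median was -0.84 past the floor, -0.44 over all 29 members and -0.56 with both arrays above the floor, against -0.03 for all genes past it. The CreER array was the lowest of the 4 for 14 of the 18, and the mock array the highest for 11. The complement genes C1qa, C1qb and C1qc and the genes Vsig4, Timd4 and Cd163, which mark subsets of resident macrophages, were under the floor on both LT-HSC arrays. The pan-macrophage genes Adgre1 (-0.48) and Cd68 (-0.56) were lower by less than Mrc1 (-1.32), which encodes the mannose receptor, and Trem2 (-1.12), a lipid-sensing receptor gene.

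Mfge8, whose product bridges dying cells to phagocytes, read 10.34 on LT-HSC CreER, 11.67 on LT-HSC mock, 10.85 on ST-HSC CreER and 11.64 on ST-HSC mock. Mrc1 read 11.00, 12.32, 11.99 and 12.02, and Axl, a sister receptor of Mertk, 9.09, 10.15, 9.58 and 9.89. Arg1, the arginase gene, was higher on both LT-HSC arrays (11.09 with CreER, 12.06 with mock) than on the ST-HSC arrays (9.48 and 10.40). In ST-HSC-derived cells Mfge8, Arg1 and Axl also read lower with CreER, whereas Mrc1 was nearly equal on the ST-HSC pair. Of the 19 macrophage genes past the floor, 18 were below 0 in the ST-HSC pair too, with a median of -0.27. Of all genes past the floor 57.2% were below 0 there.

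Lysosomal genes went the same way in every case. All 23 cathepsin and lysosome genes past the floor were below 0 (24 of 24 measured), against 55.5% of all genes past it. The median was -0.45, with a range of -1.80 to -0.04. The CreER array was the lowest of the 4 for 22 of the 23, against 53.6% of all genes past the floor that were lower with CreER. The mock array was the highest for 7. The 4 genes at least 2-fold lower were Ctsk (the collagen-degrading cathepsin K, -1.80), Atp6v0d2 (-1.37), Ctse (-1.13) and Lgmn (legumain, -1.03), against the 0.761% of all genes. Ctsk read 9.76 on LT-HSC CreER, 11.56 on LT-HSC mock, 10.03 on ST-HSC CreER and 10.73 on ST-HSC mock, so neither LT-HSC array was set apart. Ctss, the cathepsin of antigen presentation, read 11.75, 12.55, 12.54 and 12.82. In ST-HSC-derived cells 21 of the 23 were below 0 with a median of -0.19.

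Of 15 lipid uptake and storage genes 12 were below 0 (against 55.5% of all genes past the floor), with a median of -0.48. After Cd36 the fatty acid binding protein genes Fabp4 (-0.96) and Fabp5 (-0.85) were furthest, and the stearoyl-CoA desaturase genes Scd1 (0.45) and Scd2 (0.22) were above 0. The secreted matrix list had a median of -0.17 with 14 of 17 below 0, against the same 55.5%. Its largest differences were those of Fstl1, Chad and the fibronectin gene Fn1, which read 9.44 with CreER, 11.11 with mock and 10.11 and 10.96 on the ST-HSC CreER and mock arrays. Of 11 myeloid C-type lectin receptor genes 10 were below 0 (against 55.5%), with a median of -0.21. Of these Clec4a3 and Mrc1 were at least 2-fold lower, against 0.761% of all genes past the floor.

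Monocyte genes moved less than macrophage genes. Of 16 past the floor, 10 were below 0, against 55.5% of all genes past the floor, with a median of -0.12. Only Ms4a6d (-1.07) was at least 2-fold lower, against 0.761%. The macrophage growth factor receptor gene Csf1r read 11.35 with CreER and 11.76 with mock, the chemokine receptor gene Ccr2 10.40 and 10.53, and the monocyte transcription factor gene Irf8 9.95 and 9.78. Klf4, another transcription factor gene of monocytes, was lower by 0.96 and F13a1 higher by 0.42. For all 10 below 0 the CreER array was the lowest of the 4, against 53.6% of all genes past the floor that were lower. In ST-HSC-derived cells 12 of the 16 monocyte genes were below 0 (against 57.2% of all genes past the floor), with a median of -0.25.

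Of 13 dendritic cell and MHC class II genes past the floor 12 were below 0, against 55.5% of all genes past it. The median was -0.32. Over all 23 measured, 13 were below and 10 above 0 with a median of -0.11, and the median was -0.74 when the 75th percentile was taken as the floor. Itgax and the transcription factor gene Irf4 (8.16 with CreER, 9.19 with mock) were at least 2-fold lower, against 0.761% of all genes. The class II genes H2-Aa and Cd74 were lower by 0.83 and 0.74, and H2-Ab1 and H2-Eb1 by 0.32 and 0.28. Defining genes of dendritic cell subsets (Xcr1, Clec9a, Siglech, Cd209a, Cd207, Zbtb46) were under the floor on both LT-HSC arrays.

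The 12 genes that were higher with CreER also split by array. Dlk1, Cd34 and Cd27 stood apart on the CreER array. Dlk1, a Notch-family ligand gene expressed in immature cells, read 10.51 on LT-HSC CreER, 8.82 on LT-HSC mock, 9.30 on ST-HSC CreER and 8.80 on ST-HSC mock (3.22-fold). Cd34, the progenitor antigen, read 10.82, 9.69, 8.60 and 7.87, and Cd27, a receptor gene of the tumour necrosis factor family found on progenitors, 8.20, 7.07, 7.15 and 6.92. Only the CreER array was past the floor for Cd27. All 3 were also above 0 in ST-HSC-derived cells, by 0.50, 0.73 and 0.23.

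Fcnb, H3c15, Orm1, Gal, Slco4c1 and B4galt6 were the 6 for which the mock array stood below the other 3. Fcnb, the ficolin gene of immature granulocytes, read 12.08 on LT-HSC CreER, 12.82 on both ST-HSC arrays and 10.43 on LT-HSC mock. Orm1, an acute-phase protein gene also made by neutrophil precursors, read 10.05, 8.75, 11.31 and 10.55, and the neuropeptide gene Gal 9.24, 8.06, 10.50 and 9.88. In all 6 the LT-HSC CreER array lay between LT-HSC mock and the ST-HSC arrays. H3c15, a replication-dependent histone H3 gene whose near-identical copies may share its signal, read 8.59, 7.21, 9.58 and 8.88, and was under the floor on the mock array.

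Hoxa9, Hspa2 and Elovl3 make up the rest of the higher genes. Hoxa9, the homeobox gene most tied to MLL-fusion leukaemia, read 9.04 on LT-HSC CreER, 7.79 on LT-HSC mock, 8.18 on ST-HSC CreER and 8.02 on ST-HSC mock (2.36-fold). The 3 other arrays spanned 0.39 log2 units and lay around the floor, with the CreER array 0.85 above the nearest, so it was close to being set apart. Over the 10 measured HoxA genes, all were above 0 as deposited (7 after cyclic loess and 9 after quantile normalization) with a median of 0.46, where 59% of all 19938 genes were above 0 and 40.9% below. The CreER array was the highest of the 4 for each of the 10, where it was for 59.7% of all measured genes that were higher with CreER. The next largest gaps to the nearest array were in Hoxa5 (0.60), Hoxa6 (0.45), Hoxa7 (0.41) and Hoxa10 (0.41). Below 0 after cyclic loess were Hoxa13 (-0.058), Hoxa4 (-0.0088) and Hoxa2 (-0.0025), and after quantile normalization Hoxa13 (-0.024). The CreER array was the highest for 6 of the 10 after cyclic loess, for 9 after quantile normalization and for 9 with each array centred on its median. Only Hoxa4, Hoxa7 and Hoxa9 were past the floor, and with both arrays required above it Hoxa4 alone was left, at 0.05.

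Several other genes tied to MLL fusions were highest on the LT-HSC CreER array. Of 14 past the floor 11 were above 0, against 44.5% of all genes past it, and 0 were at 2-fold. The median of the 14 was 0.23, but 0.01 when the 75th percentile was the floor. The CreER array was the highest of the 4 for 10 of the 11, against 48% of all genes past the floor that were higher. With each array centred on its median 9 of the 14 were above 0. Meis1, the HOX cofactor gene, read 9.11 on LT-HSC CreER, 8.37 on LT-HSC mock, 7.59 on ST-HSC CreER and 7.10 on ST-HSC mock. Zbtb16, which encodes the transcriptional repressor PLZF, read 8.98, 8.37, 7.87 and 7.81. Myb, a progenitor transcription factor gene, read 11.75 with CreER and between 11.24 and 11.27 on the other 3. Mecom, which encodes EVI1, read 7.33 against 6.37, 6.21 and 6.01, and Flt3, the progenitor cytokine receptor gene, 7.98 against 7.10, 7.25 and 6.87. Mecom and Flt3 were under the floor on all 4 arrays, and as the mean of its probe sets Mecom differed by 0.65. Meis1 and Zbtb16 were higher on both LT-HSC arrays than on either ST-HSC array, whereas Myb was set off on the CreER array alone, by 0.48.

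Granule genes of promyelocytes showed the opposite arrangement of arrays. Of 19 primary granule genes 16 were above 0, with a median of 0.23, against 44.5% of all genes past the floor. The mock array was the lowest of the 4 for 13 of the 16, against 61.9% of all genes past the floor that were higher. Prtn3, the proteinase 3 gene, read 13.47 with CreER, 12.58 with mock and 13.45 and 13.34 on the ST-HSC arrays. Ms4a3 read 13.16, 12.55, 13.30 and 13.29, and Prss57 10.47, 9.82, 10.58 and 10.53, in the order LT-HSC CreER, LT-HSC mock, ST-HSC CreER and ST-HSC mock. For Prtn3, Ms4a3 and Prss57 the CreER array was within 0.15 log2 units of the ST-HSC arrays, with the mock array below. In other members this was not so: for Fcnb the CreER array lay 0.74 below the higher ST-HSC array. A higher gene with CreER below both ST-HSC arrays necessarily has the mock array lowest, so that count also reflects levels in ST-HSC-derived cells. The CreER array was the highest of the 4 for 7 of the 16, against 48%. Mpo was higher by 0.34 and the neutrophil elastase gene Elane by 0.50. For Mpo the CreER array (13.71) lay above both ST-HSC arrays (13.50 and 13.55).

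The median of secondary and tertiary granule genes was 0.25. Above 0 were 15 of 20, against 44.5% of all genes past the floor. The mock array was lowest for 12 of these 15, against 61.9% of all genes past the floor that were higher. Camp (13.65 with CreER, 12.90 with mock, 13.92 and 13.72 on the ST-HSC arrays) and Ltf (13.65, 13.07, 14.06 and 13.68) were among them. The CreER array lay above both ST-HSC arrays for only 1 of the 20. A higher gene with CreER below both necessarily has the mock array lowest. The count of 12 therefore also reflects lower levels in LT-HSC- than in ST-HSC-derived cells. The late mature neutrophil genes were split, 8 above and 8 below 0, with a median of 0.04, from Retnlg at -0.79 to Slfn4 at 0.77. In ST-HSC-derived cells 17 of the 20 secondary and tertiary granule genes were above 0, with a median of 0.32. Of the 16 late mature neutrophil genes 13 were above 0 there, with a median of 0.31. Transcription factor genes of the granulocyte line, Cebpd (0.72), Gfi1 (0.40), Cebpa (0.32) and Cebpe (0.23), were above 0, while Spi1 (-0.06) and Cebpb (-0.02) were not. Over the 17 genes of the myeloid and GATA transcription factor list the median was -0.06. Bhlhe41, Egr2 and Irf4 were at least 2-fold lower, against 0.761% of all genes past the floor.

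**Figure D4:**
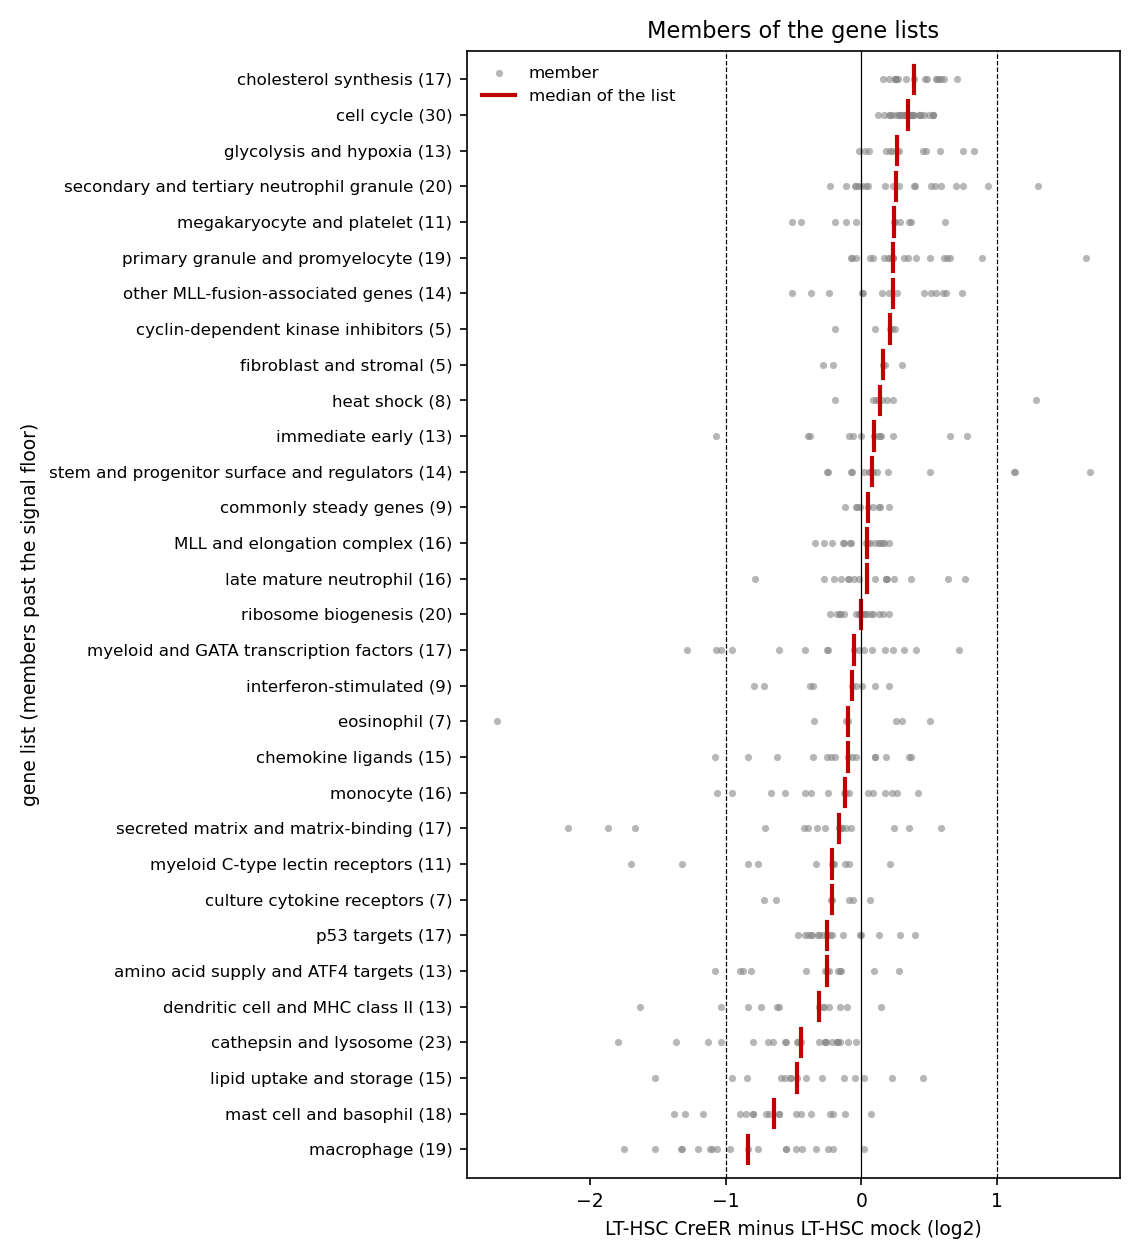
Each row is a gene list with at least 5 members past the signal floor (number in brackets), each grey point a member's LT-HSC CreER minus LT-HSC mock difference (log2), and each red bar the median; dashed lines mark 2-fold. The macrophage list is lowest with a median of -0.84, and the cholesterol synthesis (0.39) and cell cycle (0.34) lists are highest with no member below 0.

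Cell cycle genes were all higher with CreER by a small amount. All 30 measured were past the floor and above 0, against 44.5% of all genes past the floor. The list had a median of 0.34, a range of 0.12 to 0.53 and 0 at 2-fold. The mock array was the lowest of the 4 for 28 of the 30, against 61.9% of all genes past the floor that were higher with CreER. Mki67, the proliferation antigen gene, read 12.74 on LT-HSC CreER, 12.63 and 12.64 on the ST-HSC arrays, and 12.40 on LT-HSC mock. E2f1, which drives entry into DNA synthesis, read 10.57, 10.04, 10.47 and 10.33. Over the list, the median of LT-HSC CreER minus the mean of both ST-HSC arrays was 0.09. In ST-HSC-derived cells the same 30 genes had a median of 0.02, with 19 above 0.

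Cholesterol synthesis genes were higher in 17 of 17 cases, against 44.5% of all genes past the floor. The median was 0.39, with a range of 0.16 to 0.70 and 0 at 2-fold. Here the CreER array was the highest of the 4 for 15, against 48% of all genes past the floor that were higher with CreER. The mock array was the lowest for 10, against 61.9% of those genes. Nsdhl, an enzyme gene of the later pathway, read 11.46 on LT-HSC CreER, 11.21 and 11.24 on the ST-HSC arrays, and 10.76 on LT-HSC mock. Lss, the lanosterol synthase gene, read 10.53 with CreER and between 9.93 and 10.02 on the other 3, and Insig1, a sensor of the pathway, 12.51 and between 11.79 and 11.96. In ST-HSC-derived cells 13 of the 17 were below 0 (against 57.2% of all genes past the floor), with a median of -0.06. For glycolysis and hypoxia genes the median was 0.26 and 12 of 13 lay above 0 (against 44.5%), led by Bnip3 (0.83) and Pdk1 (0.75). The mock array was the lowest for 9 of the 12, against 61.9%. In ST-HSC-derived cells all 13 were below 0 (against 57.2%), with a median of -0.32.

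Targets of p53, which respond to DNA damage, had a median of -0.25. Below 0 were 14 of 17, against 55.5% of all genes past the floor. The targets were led by Sesn2 (-0.47), Fas (-0.41) and Zmat3 (-0.40), and the main targets Mdm2 and Aen differed by -0.01. The 5 cyclin-dependent kinase inhibitor genes past the floor had a median of 0.21, from Cdkn2b at -0.19 to Cdkn2d at 0.25. The median of interferon-stimulated genes was -0.07, 6 of 9 being below 0 (against 55.5%), with Irf7 (-0.79) and Usp18 (-0.72) furthest.

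Immediate early genes had a median of 0.09 over 13 genes, and Egr2 (-1.07) and Jun (0.78) were the ends of their range. Of 8 heat shock genes 7 were above 0 (against 44.5% of all genes past the floor), with a median of 0.13. Hspa2, a testis-enriched chaperone gene, was at 1.29. The 20 ribosome biogenesis genes had a median of -0.01. The receptors of the culture cytokines had one of -0.22, with 6 of 7 below 0 (against 55.5% of all genes). Among these receptors the shared IL-6 receptor chain gene Il6st (-0.72) and Csf2rb2 (-0.63) were lower, and Kit differed by 0.06. The granulocyte-macrophage receptor gene Csf2ra differed by -0.09.

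Lists of other lineages held few genes past the floor or did not lean one way. The median of megakaryocyte and platelet genes was 0.24, with 6 of 11 above 0 (against 44.5% of all genes past the floor). On LT-HSC CreER 10 of the 11 read above both ST-HSC arrays, as in the platelet chemokine gene Ppbp (12.52 with CreER, 12.17 with mock, 10.23 and 8.88 on the ST-HSC arrays). When the 75th percentile was the floor their median was -0.08. Eosinophil genes had a median of -0.10 over 7 genes, and of 0.11 over all 10 measured. Apart from Rnase2a, the eosinophil granule genes Prg2 (-0.10), Prg3 (-0.11) and Epx (0.25) differed little. The 4 erythroid genes past the floor had a median of -0.06, with the transferrin receptor gene Tfrc at 0.74, and when the 75th percentile was the floor the median was 0.74.

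The B cell list had a median of -0.53 over 3 genes (Il7r, Cd22 and Cd79b) and of 0.10 over all 12 measured. Thy1, the 1 T and NK cell gene past the floor, differed by -0.21, and the median over all 13 measured was 0.22. Il7r, the IL-7 receptor gene, was lower by 0.98, at 11.44 with CreER and 12.43 with mock. Fibroblast and stromal genes had a median of 0.16 over 5 genes, which became -0.21 when the 75th percentile was the floor. Chemokine ligand genes had a median of -0.10, with 10 of 15 below 0, against 55.5% of all genes past the floor. The eotaxin gene Ccl24 was at least 2-fold lower (9.44 with mock, 8.36 with CreER), against 0.761%. Of the sex-linked genes, Xist differed by -0.54, Eif2s3y by -0.20, Kdm5d by 0.07 and Uty by -0.20, and Xist and the Y-linked genes were past the floor on all 4 arrays.

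The stem and progenitor list had a median of 0.08 over 14 genes, with 10 above 0 (against 44.5% of all genes past the floor) and Dlk1, Cd34 and Cd27 at least 2-fold higher (against 0.117%). The other 11 lay between -0.26 and 0.51. Kit, the stem cell factor receptor gene, read 10.67 with CreER and 10.60 with mock, and the transcription factor genes Runx1 (0.02) and Tal1 (-0.07) hardly differed, while Erg was higher by 0.51. The 3 members at 2-fold thus stood well away from the rest of their list. The list was chosen with earlier results of these data known, so its shares beside those of all genes are descriptive only. The 12 olfactory receptor genes past the floor, which are mostly silent in blood cells, had a median of 0.16, and all 1027 measured had one of 0.09 with 708 above 0. Small positive differences of weakly expressed genes, such as most HoxA genes, have the same sign as this background.

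The ST-HSC pair shares no array with the LT-HSC pair and gives a second reading of CreER against mock. Of the 78 genes at least 2-fold lower in LT-HSC-derived cells, 51 were below 0 in ST-HSC-derived cells, where 57.2% of all 10251 genes were. By array the picture differed: all 9 genes with the CreER array set apart were below 0 (median -0.34), as were 21 of the 26 with neither set apart (median -0.31), but 21 of the 43 with the mock array set apart (median 0.01). Fstl1 alone of the 78 was at least 2-fold lower in ST-HSC-derived cells too, and Tph1, Fcer1a and Gzmb were at least 2-fold higher there. Past the floor of the ST-HSC arrays, 0.0789% of genes were at least 2-fold lower and 0.434% at least 2-fold higher. Of the 12 higher genes 11 were above 0 in ST-HSC-derived cells, where 42.8% of all were, with a median of 0.51 and 0 at 2-fold. The exception was B4galt6 at -0.08, and Fcnb read 0.00. The classes by array were themselves defined with the levels on the ST-HSC arrays. The contrast between them is therefore not independent of the ST-HSC pair. These differences between the groups of genes were not tested.

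**Figure D5:**
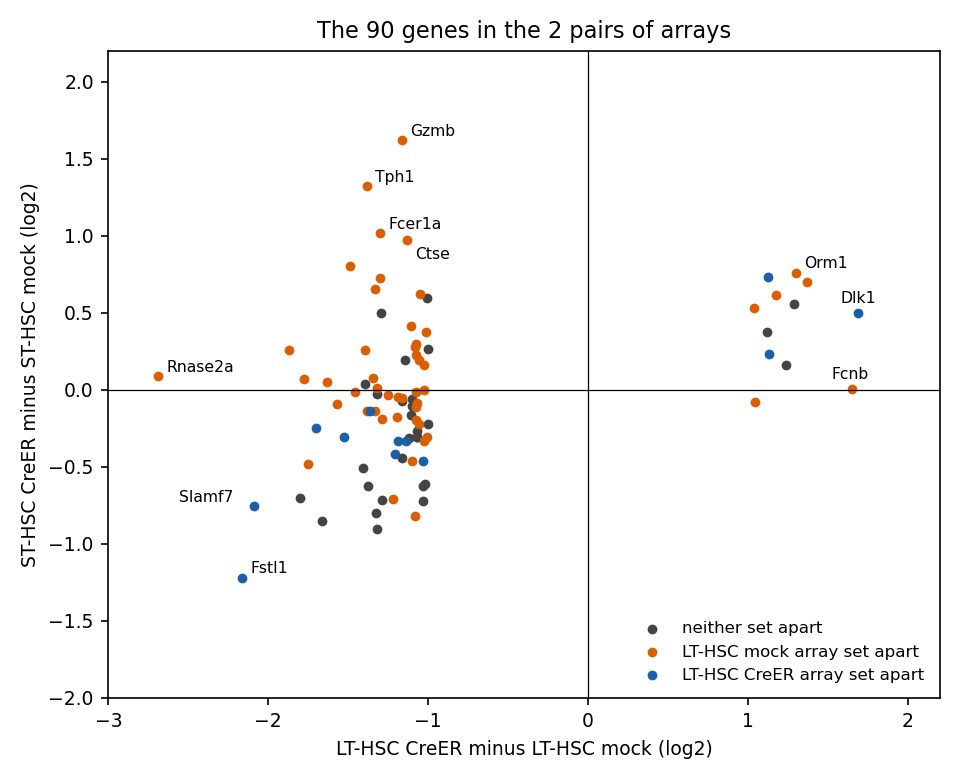
The 90 genes are placed by their CreER minus mock difference in LT-HSC-derived (x axis) and in ST-HSC-derived cells (y axis), both log2. Blue points (CreER array set apart) on the left all lie below 0 on the y axis, orange points (mock array set apart) on the left lie on both sides up to Gzmb at 1.62, and on the right 11 of the 12 genes lie above 0. The colours were assigned with the ST-HSC levels as well, so they are not independent of the y axis.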

How the data were processed

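Colony-cell RNA was measured on Affymetrix whole-transcript arrays after amplification and biotin labelling, 1 array per group, per the labels' protocols. The deposited values are log2 signals for each probe set, and this unit follows from the range of the values. The authors used Affymetrix Expression Console, per the submitters' processing notes; the sources used here do not give its settings or the genome build. The 4 columns had medians between 7.75 and 7.82, were taken as already normalized and were used as deposited.

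Of 35556 probe sets, 21789 had 1 gene symbol in the platform annotation and 1621 several; 12146 had none here. Gene numbers of 21698 matched RefSeq (GRCm38.p6), and 0 symbols changed. For 999 of 19938 genes with several probe sets, the probe set with the highest mean level was used. The floor was each array's median over genes. With 1 array per group no test was run. Any gene at 2-fold could be named, with fixed genes (the HoxA genes, Mecom, Meis1, Kmt2a, Esr1, Zbtb16, Mllt1, Csf1r, Cd34, Kit, Mpo, and Itgam, which differed by 0.02), up to 4 further members of each list by size, and others where a count is spelled out or as examples chosen after their values were seen. The 36 lists (627 entries, 579 measured, 548 different genes) and the comparison were chosen with earlier results of these data known. Alternatives covered normalization, floor, thresholds and probe sets (Python 3.11.15, pandas 2.3.3, limma 3.58.1 in R 4.3.3 for cyclic loess).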

Additional observations from a re-analysis of the deposited data

Results flagged for a closer look

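Tph1, Fcer1a and Gzmb were at least 2-fold lower with CreER than with mock in LT-HSC-derived cells, but in the ST-HSC pair CreER read at least 2-fold above mock. The LT-HSC differences were -1.39 for Tph1, -1.30 for Fcer1a and -1.17 for Gzmb, and the ST-HSC differences 1.32, 1.01 and 1.62. With 1 array per group the difference between the populations was not tested.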

How the results depend on the processing

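Each comparison rests on 1 array per side, so the number of arrays limits every value, and genes near the floor have compressed differences. No paired analysis was possible because each group has 1 array and the labels give no replicate numbers. Quantile, cyclic loess and median-centred normalization, no floor and the mean of all probe sets left every count of 2-fold genes within 1.5 times its value, and 82 to 90 of the 90 genes stayed at 2-fold; the median of all genes past the floor moved between -0.05 and 0.00. With the floor at the 75th percentile, 48 genes were lower and 5 higher; the mock array was set apart for 26 and 3 of these, and 29 and 4 had the same sign in ST-HSC-derived cells. With both arrays above the floor 6 genes were higher, 3 of them with the mock array set apart and 5 above 0 in ST-HSC-derived cells. At 1.5-fold 313 genes were lower and 106 higher, of which 213 and 80 had the same sign in ST-HSC-derived cells. At 3-fold 10 were lower and 2 higher, the mock array being set apart for 5 and 1, the CreER array for 3 and 1, and 6 and 2 having the same sign in ST-HSC-derived cells. With a gap of 1.5-fold the CreER array was set apart for 19 lower and 5 higher genes, and with a gap of at least 0.5 of the difference for 18 and 5. List medians changed sign for the B cell (0.10) and T and NK cell (0.22) lists without a floor, and for the erythroid (0.74), megakaryocyte and platelet (-0.077) and fibroblast and stromal (-0.21) lists at the 75th percentile; fewer or more members past the floor enter there. Smaller sign changes, of medians near 0, were those of the eosinophil list (-0.10 to 0.11 without a floor and 0.078 with both arrays above it), the erythroid list (-0.055 to 0.14 without a floor) and the ribosome biogenesis list (-0.006 to 0.035 after quantile normalization, 0.0024 after cyclic loess and 0.016 at the 75th percentile). Itgam changed from 0.02 to -0.005 with centred arrays, and Hoxa13, Hoxa2 and Hoxa4 were below 0 after cyclic loess. All members past the floor of the cell cycle, cholesterol synthesis and cathepsin and lysosome lists kept their sign under the 3 normalizations and the mean of probe sets. The other list medians moved by less than 0.25 under these alternatives, except in 5 cases (2 for macrophage genes and 1 each for dendritic cell, B cell and HoxA genes), which kept their sign.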

Other observations

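Outside the genes with 1 symbol, 13767 probe sets had several symbols or none here, and 5200 of them were past the floor. Of these, 26 were at least 2-fold lower and 3 at least 2-fold higher on LT-HSC CreER than on LT-HSC mock.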
